A study of Rattus norvegicus with 24 samples.

Results

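The comparison of F2 IUO with F1 IUO set 4 rat pups against 4 others that belonged to successive generations of one in utero oxycodone (oxy) lineage. RNA from the nucleus accumbens (NAc) of Sprague Dawley pups at postnatal day 14 was sequenced in 24 libraries, and these 8 were used for the main comparison. The F0 dams of this lineage were given oxy by oral gavage, at a dose that was raised before mating and then held, until their litters were weaned, so that F1 IUO pups met the drug in utero and in milk. F2 IUO pups were born to F1 females of that lineage, which were not themselves dosed. The 4 F1 and 4 F2 saline (SAL) pups, whose F0 dams were given saline, and the 4 F1 and 4 F2 pups of the postnatal oxy (PNO) lineage, whose F0 dams were given oxy only between parturition and weaning, gave the same generation contrast in other lineages. The pups of a group came from separate litters, and male or female pups were taken at random without their sex being given. The comparison covered every gene with at least 1 FPKM (fragments scaled for transcript length and for the mapped fragments of the library) in 4 or more of the 8 IUO libraries, which were 13602 of the 23950 genes in the files, or 56.8%. Of these, 11496 reached 1 FPKM in all 8 libraries.

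The NAc is a part of the ventral striatum in which most neurons are GABAergic projection neurons that carry dopamine receptors and opioid peptides, and it is known for its part in reward and in the action of opioids. Its projection neurons need voltage-gated channels, synaptic receptors and scaffolds to fire and signal, while respiratory chain and ribosomal proteins serve the energy supply and protein synthesis of all its cells. In a bulk sample, fewer cells of a type and less RNA per cell cannot be told apart.

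The libraries were compared with each other first, because a dissection can hold neighbouring tissue. The defining markers of striatal projection neurons were present in every IUO library, with Ppp1r1b (DARPP-32) at 343 to 488 FPKM in F1 and 167 to 401 FPKM in F2. Ttr, which marks choroid plexus, stood at 6.12, 22.8, 8011 and 973 FPKM in F1 IUO 1 to 4 and at 12103, 6.90, 4.77 and 3.15 FPKM in F2 IUO 1 to 4, so that 3 of the 8 libraries stood far above the other 5. The summed level of thalamus and habenula markers, of which 20 of the 21 listed were present, ranged from 117 to 374 FPKM in F1 and from 116 to 428 FPKM in F2. Kdm5d, a gene of the Y chromosome, stood at 0.77, 5.47, 0.22 and 0.10 FPKM in F1 and at 0.02, 4.02, 5.18 and 3.74 FPKM in F2, so that the groups did not hold the same balance of libraries with Y-linked RNA. The 13 protein-coding genes and the other gene models of the mitochondrial genome took 18.8 to 42.2% of the summed FPKM in F1 and 27.9 to 38.1% in F2. F2 IUO 4 had the most genes listed at 0, at 7532, against 4848 to 7176 in the other libraries of the comparison. The part of these differences in the results was not tested beyond the values given beside them. The files do not show how many fragments each library held, so the precision from counting cannot be stated.

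No gene differed between F2 and F1 IUO at an adjusted p under 0.05 (limma with Benjamini-Hochberg adjustment, 0% of genes tested), and the smallest adjusted p was 0.201. At an unadjusted limma p under 0.05, 2316 genes differed, or 17% of those tested. Of them, 859 were higher in F2 (6.32%) and 1457 were lower (10.7%). The split depended on the scale, at 393 higher and 2426 lower when FPKM was rescaled to its sum outside the mitochondrial genome and 1354 higher and 1015 lower relative to the median of all genes, and without F1 IUO 3 it was 727 and 966. It was nearly even without F1 IUO 4, at 1031 higher and 1086 lower, and with a covariate of Y-linked genes, at 978 and 1096. A stricter rule, an unadjusted p under 0.05 with mean FPKM at least 2-fold apart, took 340 genes (2.5%), of which 53 were higher in F2 (0.39%) and 287 were lower (2.11%). The 4 values of one generation lay wholly above the 4 of the other for 1677 genes (12.3%), with 576 higher in F2 (4.23%) and 1101 lower (8.09%). For such a gene the exact permutation test of 4 against 4 libraries, two-sided, gives 0.0286, the smallest p that it can give. A set of 16 genes reached 1 FPKM in all 4 F1 and in no F2 library, and 0 genes did the reverse.

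The direction of the difference followed the level of the gene. The median log2 difference (F2 minus F1, on the log2(FPKM + 0.1) scale) over all genes tested was -0.07, and 57.7% of genes lay below 0. Among 2837 genes with a mean under 3 FPKM it was -0.27, with 33 higher and 296 lower at an unadjusted p under 0.05. It was -0.15 from 3 to 10 FPKM, -0.05 from 10 to 30 FPKM and 0.07 from 30 to 100 FPKM. Among the 800 genes of 100 FPKM or more it was 0.21, and here 226 genes were higher in F2 and 25 were lower. From the lowest tier to the highest, the share of genes called higher rose, at 1.16, 3.08, 5.64, 13.4 and 28.2%. The share called lower was 10.4, 13.8, 11.4, 5.88 and 3.12%. It was thus near that of all genes (10.7%) in the lowest tier and well below it only from 30 FPKM upwards. The saline lineage had medians of -0.10 in the lowest and 0.13 in the highest of these tiers, and the PNO lineage had -0.09 and 0.01.

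**Figure D1:**
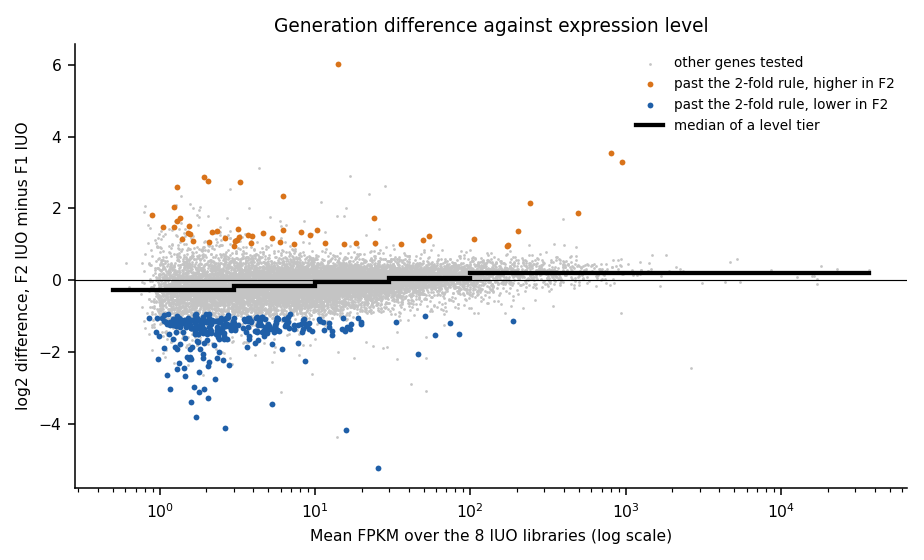
Each point is 1 of the 13602 genes tested, with its mean FPKM over the 8 IUO libraries (log scale) on the horizontal axis and its log2 difference, F2 IUO minus F1 IUO, on the vertical axis. The 53 genes past the 2-fold rule and higher in F2 are orange, the 287 lower ones are blue and crowd at low levels, and the black lines, the medians of 5 level tiers, step up from -0.27 to 0.21.

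Genes for the nuclear-encoded respiratory chain and ATP synthase, which carry out oxidative phosphorylation in mitochondria, were the gene list most often higher in F2 among those examined. Of 86 tested, 46 were higher in F2 at an unadjusted p under 0.05 (53.5%, against 6.32% of all genes) and 0 were lower. The groups did not overlap for 35, all higher in F2, against 4.23% of all genes. The median log2 difference was 0.35, against -0.07 over all genes, and ranged from 0.27 to 0.39 when each IUO library was left out in turn. Without F2 IUO 4, the library with the highest list level, 29 members were higher, and without F1 IUO 2 it was 30. The mean level of the list relative to the 8-library mean of each gene was -0.31, -0.12, -0.05 and -0.18 on the log2 scale in F1 and 0.16, 0.13, 0.02 and 0.35 in F2, so that every F2 library lay above every F1 library.

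Ndufv3, a subunit of complex I, had the smallest p of the list. It stood at 38.0, 44.2, 49.3 and 37.6 FPKM in F1 and at 66.7, 65.3, 59.1 and 68.3 FPKM in F2. All 4 F2 libraries lay above the highest F1 library, and the log2 difference was 0.62 ± 0.12 (SE, limma, unadjusted p = 0.000498). Uqcrq, a small subunit of complex III, stood at 134, 105, 147 and 136 FPKM in F1 and at 205, 213, 188 and 324 FPKM in F2. Its groups did not overlap, with F2 IUO 4 well above the other F2 libraries, and the log2 difference was 0.81 ± 0.18 (SE). Cox6b1, a subunit of cytochrome c oxidase, rested on the same pattern, with 85.0 to 106 FPKM in F1 and 120 to 156 FPKM in F2. Atp5mc2, which encodes subunit c of the rotor of ATP synthase, had 223 to 318 FPKM in F1 and 402 to 471 FPKM in F2. The 13 proteins encoded in the mitochondrial genome itself, which join these subunits in the same complexes, gave 0 members past an unadjusted limma p of 0.05 and a median of 0.12, which turned to -0.21 without F1 IUO 4 and to -0.15 with a covariate of Y-linked genes.

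Promoters of these genes often carry a motif of ETS factors, CCGGAAG, which was searched on both strands of RefSeq promoters of 300 bases (GRCr8, 250 before to 50 after the start). Of the 83 symbols of the list, 71 had a promoter (85.5%), and 19 of those (26.8%) held the motif. It was 1 of 4 motifs searched, and the other 3 were TGACGTCA (5.63% of list promoters and 1.91% of all), TATAAA (8.45% and 14.3%) and GGGCGG (38.0% and 35.9%). CCGGAAG was present in 9.49% of all 24206 promoters in the table and in 17.3% of the promoters of tested genes. Of the latter, 3.22% held TGACGTCA, 6.13% TATAAA and 64.2% GGGCGG. Promoters of cytosolic ribosomal protein genes held CCGGAAG in 29.3%. Only 66.2% of tested genes and 76.3% of the ribosomal ones had a promoter, below the 80% needed for a comparison. Those shares are thus given as a description only. The 120 bases before the start are shown for the 2 members with the motif in them and the 2 without it in the whole promoter that had the smallest p, taken from members with 1 promoter that were higher in F2 without overlap, to set both kinds of promoter side by side, with the motif in capitals. Uqcrq is at chr10:38089979-38090098, Atp5pf at chr11:37375102-37375221, Atp5mc2 at chr7:135678219-135678338 and Ndufa4 at chr4:40975560-40975679, all on the minus strand and written 5′ to 3′ in the direction of transcription.
Uqcrq: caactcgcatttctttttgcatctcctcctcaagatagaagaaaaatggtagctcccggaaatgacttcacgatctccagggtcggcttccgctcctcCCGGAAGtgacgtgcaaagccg
Atp5pf: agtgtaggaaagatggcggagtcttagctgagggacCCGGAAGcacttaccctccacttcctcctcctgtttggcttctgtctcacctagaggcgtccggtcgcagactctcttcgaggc
Atp5mc2: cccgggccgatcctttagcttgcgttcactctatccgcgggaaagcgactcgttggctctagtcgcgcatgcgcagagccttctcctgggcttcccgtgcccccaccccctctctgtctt
Ndufa4: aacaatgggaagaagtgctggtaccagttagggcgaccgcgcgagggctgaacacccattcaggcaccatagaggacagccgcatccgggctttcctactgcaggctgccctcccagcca
The motif begins at position -22 from the start in Uqcrq and at position -84 in Atp5pf, and Atp5mc2 and Ndufa4 hold none in their 300 bases. Ndufa4, a small subunit of cytochrome c oxidase, was higher in F2 without the motif, at 292 to 416 FPKM in F1 and 520 to 770 FPKM in F2. Atp5pf, a coupling subunit of ATP synthase that was chosen here for its promoter after its values were seen, stood at 131 to 188 FPKM in F1 and 207 to 280 FPKM in F2. A match is a run of letters and not a measured binding site, and nothing follows from its absence.

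Ribosomal protein genes had medians above 0, but most are strongly expressed. Of 84 cytosolic ribosomal protein genes, 29 were higher in F2 at an unadjusted p under 0.05 (34.5%, against 6.32% of all genes) and 1 was lower, and 21 were higher without overlap (4.23% of all genes). The median log2 difference was 0.24, with 0.19 to 0.31 when each library was left out, and 18 members were higher without F2 IUO 4. Among all genes of 100 FPKM or more, 28.2% were higher with a median of 0.21, and at that level 27 of 69 cytosolic ribosomal protein genes were higher (39.1%, median 0.26), as were 39 of 66 respiratory chain genes (59.1%, median 0.38). Rps12, of the small subunit, stood at 175, 186, 182 and 164 FPKM in F1 and at 272, 271, 230 and 270 FPKM in F2. Its log2 difference was 0.56 ± 0.11 (SE, limma, unadjusted p = 0.000352), and the lowest F2 library lay above the highest F1 library. Rpl32, of the large subunit, has 2 models in the files, and that with the smaller p had 217 to 271 FPKM in F1 and 324 to 383 FPKM in F2. Of 71 mitochondrial ribosomal protein genes, which build the ribosome that translates the mitochondrial genome, 25 were higher (35.2%) and 1 was lower, with a median of 0.30. Mrpl54 had 59.9 to 73.3 FPKM in F1 and 87.0 to 119 FPKM in F2, and leaving out F2 IUO 4 reduced the count of this list to 12, while it was 15 without F1 IUO 2. Of 35 proteasome subunit genes 7 were higher and 0 were lower, with a median of 0.20 (0.09 without F1 IUO 1), and the count was 2 without F1 IUO 1, 4 without F1 IUO 2 and 3 without F2 IUO 1 or F2 IUO 4. Psma1, of the ring that gates the core particle, stood at 53.8, 55.4, 52.0 and 56.3 FPKM in F1 and at 82.7, 70.1, 72.7 and 73.1 FPKM in F2, with no overlap.

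The size of these shifts depended on how libraries were scaled. When FPKM was rescaled to its sum outside the mitochondrial genome, the median of all genes moved from -0.07 to -0.18, and the lists kept medians above 0, at 0.23 for the respiratory chain, 0.13 for cytosolic and 0.19 for mitochondrial ribosomal proteins. Their counts of higher members then fell to 20, 11 and 7, with 1, 2 and 1 lower. Relative to the median of all genes they were 60, 39 and 42, with 0, 1 and 0 lower.

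Genes of striatal projection neurons were lower in F2. Of 32 tested, 13 were lower at an unadjusted p under 0.05 (40.6%, against 10.7% of all genes), 0 were higher, and 29 had a log2 difference below 0. The median was -0.54, and the groups did not overlap for 5 members, all lower in F2, against 8.09% of all genes. The list rested unevenly on the libraries, since its relative level was 0.49, 0.37, 0.07 and -0.02 in F1 and -0.66, 0.03, -0.41 and 0.13 in F2. F2 IUO 1 and F2 IUO 3 were lowest, F1 IUO 1 and F1 IUO 2 highest, and the generations overlapped between them. Markers of thalamus and habenula had relative levels of -0.83, -0.55, 0.45 and 0.79 in F1 and 0.70, 0.16, 0.47 and -1.19 in F2. Zic1, which is in that list and in the list of septum and other basal forebrain, stood at 11.5, 13.9, 47.5 and 40.7 FPKM in F1 and 68.8, 15.95, 63.8 and 5.58 FPKM in F2. Both were thus low in F1 IUO 1 and F1 IUO 2 and high in F2 IUO 1 and F2 IUO 3, the reverse of the projection neuron list. The septum list had relative levels of -0.25, -0.15, 0.43 and 0.34 in F1 and 0.21, -0.41, 0.73 and -0.9 in F2. Its member Lhx8 went otherwise, at 9.09, 6.42, 7.1 and 8.99 FPKM in F1 and 1.53, 5.56, 9.85 and 17.4 FPKM in F2. Cortical excitatory neuron markers had a median of 0.18. With the thalamus and habenula markers as a covariate the median of the projection neuron list was -0.55 and 19 members were lower. With the cortical markers as the covariate it was -0.47, with 10 lower and 1 higher, and with hypothalamus markers 12 were lower. Upper-quartile rescaling left 10 members lower, and values relative to the median of all genes left 9. The median was -0.33 without F2 IUO 1, and the count of lower members was 7 without it, 8 without F2 IUO 3, F1 IUO 1 or F1 IUO 2, and 19 without F2 IUO 4.

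Adcy5, the main adenylyl cyclase of striatal neurons, had the smallest p of the list. It stood at 69.9, 74.9, 65.4 and 77.0 FPKM in F1 and at 30.6, 59.0, 35.2 and 40.4 FPKM in F2, with no overlap and a log2 difference of -0.84 ± 0.19 (SE, limma, unadjusted p = 0.00126). Gnal, which encodes the G protein subunit that couples dopamine and adenosine receptors to that cyclase, had 58.0 to 103 FPKM in F1 and 37.8 to 50.8 FPKM in F2. Gng7, the gamma subunit of the same G protein, stood at 297, 228, 180 and 163 FPKM in F1 and at 83.8, 129, 91.2 and 158 FPKM in F2. All F2 libraries lay below the lowest F1 library for both, but for Gng7 F2 IUO 4 at 158 FPKM came close to F1 IUO 4 at 163 FPKM. Pde10a, a cyclic nucleotide phosphodiesterase of these neurons, passed the 2-fold rule, although F2 IUO 2 at 19.6 FPKM exceeded F1 IUO 4 at 17.4 FPKM.

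Receptors and peptides of these neurons overlapped between generations. Drd1, the D1 dopamine receptor of the direct pathway, stood at 19.9, 21.7, 17.0 and 14.5 FPKM in F1 and at 6.87, 15.5, 9.77 and 13.3 FPKM in F2 (log2 difference -0.73 ± 0.25, SE, limma, unadjusted p = 0.0154). Drd2, the D2 receptor of the indirect pathway, had 25.8 to 48.7 FPKM in F1 and 15.8 to 48.0 FPKM in F2, with a limma p of 0.145. Penk, the precursor of enkephalin, stood at 249, 326, 230 and 249 FPKM in F1 and at 81.5, 215, 116 and 276 FPKM in F2, and F2 IUO 4 was above 3 of the F1 libraries. Of the 8 listed genes of the opioid system, 7 were tested, and Oprm1, the mu opioid receptor on which oxy acts, was below the level filter. Pnoc, the precursor of nociceptin, stood at 5.40 to 8.94 FPKM in F1 and at 7.65 to 13.6 FPKM in F2, and with Pomc it was higher at an unadjusted p under 0.05, while Penk was lower. Of the 7, 28.6% were thus higher and 14.3% lower, against 6.32% and 10.7% of all genes. These calls were lost when libraries were left out, since 0 of the 7 were higher without F1 IUO 1, F2 IUO 1 or F2 IUO 3, and 0 were lower without any 1 of the F1 libraries, without F2 IUO 1 or relative to the median of all genes. Oprd1, the delta receptor, had 1.38 to 2.34 FPKM in F1 and 0 to 2.31 FPKM in F2, and its difference did not pass that p.

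Genes of neuronal excitability and the synapse had medians below 0 in most lists. Of 38 voltage-gated channel genes, 13 were lower (34.2%, against 10.7% of all genes) and 0 were higher, with a median of -0.43. The groups did not overlap for 9, all lower, against 8.09% of all genes. The count of lower members was 6 without F1 IUO 2, 8 without F1 IUO 3 and 19 without F2 IUO 2. Cacna1e, the R-type calcium channel, stood at 6.59, 5.29, 6.12 and 4.43 FPKM in F1 and at 1.12, 2.21, 2.75 and 0.62 FPKM in F2. Every F2 library lay below every F1 library, and the log2 difference was -1.86 ± 0.41 (SE, limma, unadjusted p = 0.00109). Kcnma1, the large-conductance potassium channel, had 5.50 to 6.54 FPKM in F1 and 1.95 to 5.06 FPKM in F2. F2 IUO 4 was the lowest library for both Cacna1e and Kcnma1. The lists lower in F2 were not compared with genes of matched level, and all genes from 3 to 10 FPKM had a median of -0.15.

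At the synapse, 9 of 26 postsynaptic scaffold genes and 5 of 14 GABA-A receptor genes were lower (34.6% and 35.7%, against 10.7% of all genes) and 0 of either were higher, with medians of -0.41 and -0.39. The scaffold median was -0.21 without F2 IUO 4 and -0.26 without F2 IUO 1. Shank3, a scaffold of excitatory synapses, stood at 60.6, 51.0, 53.3 and 64.0 FPKM in F1 and at 35.5, 50, 40.8 and 30.4 FPKM in F2, with F2 IUO 2 just below the lowest F1 library. Gabrg3, a gamma subunit of the GABA-A receptor, had 3.96 to 5.62 FPKM in F1 and 1.42 to 3.43 FPKM in F2. The GABA-A count was 3 without F1 IUO 2, F1 IUO 3 or F2 IUO 1. AMPA and NMDA receptor genes had a median near that of all genes, with 4 of 19 lower (21.1%), 0 higher and a median of -0.08. Genes of vesicle release moved in both directions, with 8 of 28 lower (28.6%), 3 higher (10.7%) and a median of 0.01 (-0.10 when rescaled outside the mitochondrial genome), and 1 was higher without F1 IUO 2, F2 IUO 2 or F2 IUO 4. Cplx2 (complexin 2), which binds the release machinery, had 174 to 185 FPKM in F1 and 105 to 145 FPKM in F2, while Snap25, a member of the fusion complex, had 226 to 523 FPKM in F1 and 441 to 625 FPKM in F2.

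Cell surface and matrix genes were lower as well. Of 34 protocadherin genes, which encode adhesion molecules that give neurons surface identity, 33 had a difference below 0, and the median was -0.44. At an unadjusted p under 0.05, 9 were lower (26.5%, against 10.7% of all genes), all without overlap (8.09% of all genes). Pcdhga6 stood at 4.85, 3.16, 4.19 and 4.47 FPKM in F1 and at 1.84, 2.69, 1.91 and 1.90 FPKM in F2, so that each F2 library lay below each F1 library. The count was 5 without F1 IUO 1, F1 IUO 2 or F1 IUO 4, and 6 without F1 IUO 3, F2 IUO 1 or F2 IUO 4. Of 20 genes of the matrix and perineuronal net, 8 were lower (40.0%, against 10.7% of all genes), with a median of -0.56, and the count was 5 without F1 IUO 3. Of the list, 6 were lower without overlap, against 8.09% of all genes. Fn1, which encodes fibronectin, had 11.7 to 13.7 FPKM in F1 and 4.03 to 9.34 FPKM in F2. All 27 collagen genes had a difference below 0, with 6 lower at that p (22.2%, against 10.7% of all genes). Their median was -0.47, which was -0.29 without F2 IUO 4 and -0.31 without F1 IUO 4, where 4 and 3 were lower. Col4a2, of the basement membrane collagen, stood at 27.2, 31.0, 28.9 and 47.7 FPKM in F1 and at 21.2, 24.2, 19.9 and 12.3 FPKM in F2, where F1 IUO 4 was the highest and F2 IUO 4 the lowest library.

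**Figure D2:**
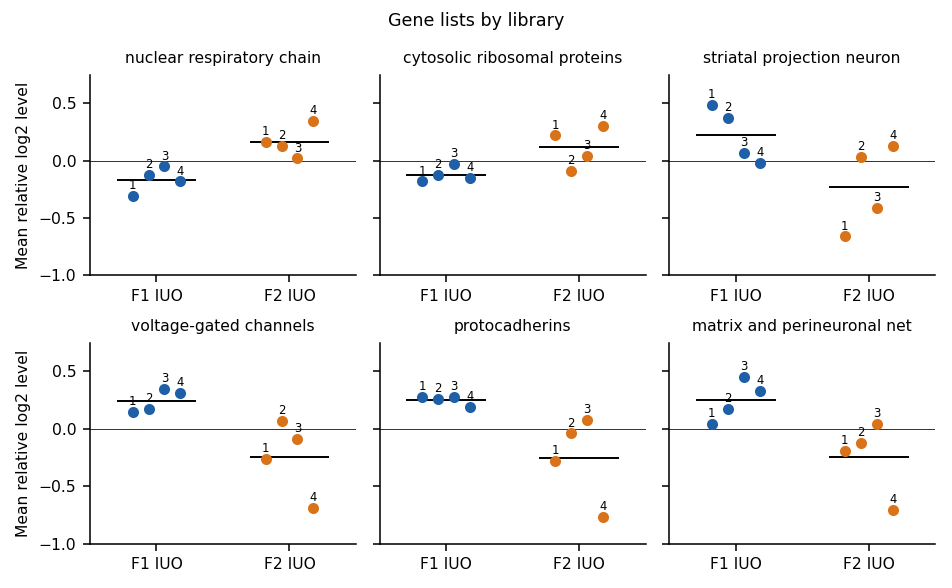
Each point is 1 IUO library, numbered 1 to 4 within F1 (blue) and F2 (orange), with the mean log2 level of a gene list relative to the 8-library mean of each gene on the vertical axis and the group mean as a black line. The respiratory chain separates the generations from -0.05 or below in F1 to 0.02 or above in F2, striatal projection neuron genes overlap, and F2 IUO 4 is the lowest library for channels, protocadherins and matrix genes.

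F2 IUO 4 was the lowest library of the latter 3 lists, at -0.69 for channels, -0.77 for protocadherins and -0.71 for matrix genes. Without it, the medians were -0.30, -0.31 and -0.35 and the all-gene median was -0.02, and 11, 6 and 8 members were lower. With a covariate of Y-linked genes, 10 channel, 7 protocadherin and 6 matrix genes were lower, as were 20 striatal projection neuron genes, and 36 respiratory chain genes were higher.

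Of 26 regulators of chromatin tested, 4 passed the 2-fold rule, all lower in F2, where 2.11% of all genes did so. At an unadjusted p under 0.05, 6 were lower (23.1%, against 10.7% of all genes) and 0 were higher, with a median of -0.19. The count of lower members was 4 without F2 IUO 1 or F2 IUO 4. Dnmt3a, a DNA methyltransferase, stood at 20.02, 19.9, 23.2 and 24.2 FPKM in F1 and at 9.31, 12.7, 11.9 and 3.09 FPKM in F2 (log2 difference -1.40 ± 0.38, SE, limma, unadjusted p = 0.00456). Tet3, which oxidises methylcytosine, had 4.89 to 10.6 FPKM in F1 and 1.15 to 3.78 FPKM in F2, and Kmt2a, a histone methyltransferase, had 2.92 to 5.61 FPKM in F1 and 0.81 to 2.38 FPKM in F2. The generations did not overlap for Dnmt3a, Tet3 and Kmt2a, and F2 IUO 4 was the lowest library for each. The other 22 did not pass the rule, and 2 of them were lower at an unadjusted p under 0.05.

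Glial lists held calls near or below the shares of all genes, 6.32% higher and 10.7% lower. Of 21 astrocyte genes 1 was higher (4.76%) and 2 were lower (9.52%), among them Slc1a2, the main glutamate transporter of astrocytes, at 85.2, 135, 157 and 109 FPKM in F1 and 38.3, 54.6, 75.9 and 19.01 FPKM in F2. Its groups did not overlap and it passed the 2-fold rule, while Gfap, the intermediate filament of astrocytes, overlapped at 40.2 to 73.3 and 48.9 to 77.8 FPKM. Of 26 oligodendrocyte genes 3 were lower (11.5%) and 0 were higher. Gpr17, a receptor of committed oligodendrocyte precursors, had 44.8 to 60.5 FPKM in F1 and 19.6 to 44.2 FPKM in F2, and the myelin gene Mog overlapped at 18.1 to 35.9 and 16.3 to 32.7 FPKM. Of 20 microglial and innate immune genes 1 was higher and 1 was lower (5.00% each). The lower one was P2ry12, a receptor of resting microglia, which stood at 10.7, 17.2, 12.7 and 9.85 FPKM in F1 and at 7.08, 7.21, 6.47 and 7.62 FPKM in F2, without overlap. The microglial markers Aif1, Cx3cr1 and C1qa overlapped between generations, and Cd68, a lysosomal protein of phagocytes, was at 0.73 to 2.35 FPKM in F1 and 2.33 to 3.01 FPKM in F2. Pdgfrb, a receptor of pericytes, stood at 4.80, 9.02, 9.44 and 8.41 FPKM in F1 and at 3.59, 2.69, 3.86 and 2.44 FPKM in F2. It was 1 of 5 lower (22.7%) among 22 vascular, barrier and meningeal genes, and the 5 became 3 without F1 IUO 2, F1 IUO 3 or F2 IUO 1. Of these 22, 6 were lower without overlap, against 8.09% of all genes.

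Of the 340 genes past the 2-fold rule, 232 did not overlap between generations, 31 higher and 201 lower, and those with the smallest p in each direction are described in turn. All had an adjusted limma p between 0.201 and 0.204. Their unadjusted p stayed under 0.05 when each library was left out, but 7 of the 24 then fell below 2-fold in at least 1 fit. These were AABR07048992.1 (without F2 IUO 4, F1 IUO 1, F1 IUO 2 or F1 IUO 4, lowest log2 difference 0.82), Rprm (without F2 IUO 1, F1 IUO 2, F1 IUO 3 or F1 IUO 4, 0.84), Nppc (without F2 IUO 1, F2 IUO 4 or F1 IUO 3, 0.87), Smc5 (without F2 IUO 1 or F2 IUO 3, -0.93), AY172581.6 and Strn (without F2 IUO 4, 0.96 and -1) and AABR07007916.1 (without F2 IUO 2, -1). Among those higher in F2, 3 were short gene models of the mitochondrial genome. AY172581.7 stood at 277, 143, 68.5 and 63.9 FPKM in F1 and at 943, 867, 1558 and 2481 FPKM in F2, a log2 difference of 3.54 ± 0.49 (SE, limma, unadjusted p = 2.9e-05). AY172581.10 followed the same library order, from 76.4 to 415 FPKM in F1 and from 1061 to 2797 FPKM in F2. AY172581.6 was lower in level, at 24.7 to 45.01 FPKM in F1 and 52.2 to 128 FPKM in F2. F2 IUO 4 was the highest library for all 3. Levels of gene models this short depend on how fragments are assigned, and neighbouring models of one transcript share reads.

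A further 3 of the higher genes were annotated as copies of small ribosomal subunit genes. LOC100360647, described in the files as a precursor of ribosomal protein S30, stood at 82.0, 97.6, 187 and 102 FPKM in F1 and at 296, 319, 250 and 282 FPKM in F2. F1 IUO 3 was the highest F1 library and still lay below every F2 library, and the log2 difference was 1.36 ± 0.23 (SE). AABR07005572.2, a partial copy of the same gene family, had 0.89 to 4.18 FPKM in F1 and 6.65 to 14.6 FPKM in F2. LOC100361854, an S26-like gene, had 2.35 to 3.99 FPKM in F1 and 4.58 to 10.2 FPKM in F2. Reads of such near-identical copies can be split between them, so the level of any 1 copy is uncertain. The same holds for AABR07048992.1, described as a heat shock cognate protein, at 98.1 to 148 FPKM in F1 and 181 to 326 FPKM in F2.

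RT1-S3, a non-classical class I gene of the rat major histocompatibility complex whose close relatives can share its reads, stood at 1.29, 2.22, 2.36 and 1.90 FPKM in F1 and at 5.62, 4.24, 4.78 and 3.54 FPKM in F2. It was higher in every F2 library, whereas RT1-N3 of the same complex was lower, at 1.53 to 2.31 FPKM in F1 and 0 to 1.06 FPKM in F2. Rprm (reprimo), a p53 target known for arrest of the cell cycle, stood at 34.1, 17.2, 21.1 and 22.9 FPKM in F1 and at 67.0, 44.4, 35.1 and 45.6 FPKM in F2. Nppc, the precursor of C-type natriuretic peptide, had 3.63 to 5.85 FPKM in F1 and 6.41 to 12.9 FPKM in F2. AABR07006025.1, a gene model with annotations of a shared RNA polymerase subunit, was listed at 0 in F1 IUO 1, 2 and 4, at 17.6 FPKM in F1 IUO 3 and at 20.5 to 26.8 FPKM in F2. AABR07072264.3, an uncharacterised model, had 0.92 to 1.97 FPKM in F1 and 2.76 to 7.66 FPKM in F2.

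Among the genes lower in F2, Sptb had the smallest p. It encodes beta-spectrin, which joins the actin skeleton to the membrane. It stood at 11.9, 11.2, 12.04 and 15.1 FPKM in F1 and at 3.97, 5.68, 6.25 and 5.02 FPKM in F2, with no overlap and a log2 difference of -1.26 ± 0.18 (SE, limma, unadjusted p = 4.04e-05). The difference ranged from -1.35 to -1.13 when each library was left out in turn. Strn (striatin), a calmodulin-binding scaffold of dendrites, stood at 22.9, 24.1, 23.97 and 22.5 FPKM in F1 and at 8.69, 13.9, 13.01 and 6.56 FPKM in F2. Shc3, a neuronal adaptor of receptor tyrosine kinases, had 20.7 to 26.4 FPKM in F1 and 4.89 to 12.3 FPKM in F2. Unc13c, which primes synaptic vesicles, had 6.39 to 7.40 FPKM in F1 and 1.40 to 3.08 FPKM in F2. The narrow F1 values of Strn and Unc13c stood against a wider spread in F2.

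Taok1, a kinase that acts on microtubules and stress signalling, stood at 7.50, 7.57, 9.41 and 8 FPKM in F1 and at 2.54, 4.43, 4.12 and 1.84 FPKM in F2. Smc5, a subunit of a chromosome maintenance complex, had 4.88 to 5.97 FPKM in F1 and 2.12 to 3.29 FPKM in F2. Fam102b had 4.82 to 7.38 FPKM in F1 and 0.98 to 2.36 FPKM in F2, and Erich3 had 6.28 to 11.95 FPKM in F1 and 2.36 to 3.67 FPKM in F2. Neither Taok1, Smc5, Fam102b nor Erich3 had an F2 library within the F1 range. The other 4 were unnamed models. AABR07007916.1, annotated as a binding protein of regulators of G protein signalling, had 24.6 to 28.9 FPKM in F1 and 8.84 to 16.7 FPKM in F2, and AC134224.2 had 56.2 to 79.7 and 7.38 to 37.2 FPKM. AABR07005779.5, annotated as a catalytic subunit of protein kinase A, had 2.73 to 7.62 and 0.43 to 1.42 FPKM, and AABR07031756.2, annotated as a glucocorticoid receptor, had 3.76 to 8.26 and 1.41 to 2.51 FPKM.

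**Figure D3:**
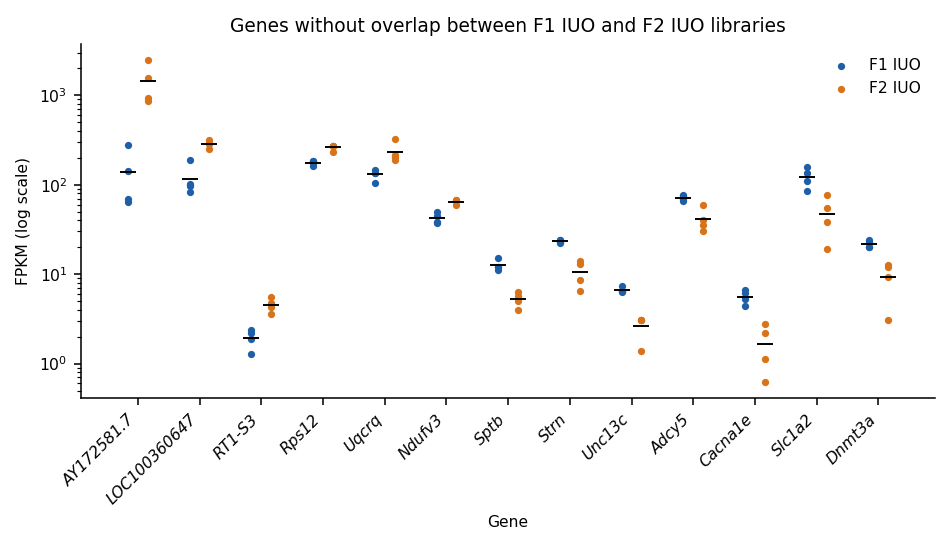
FPKM (log scale) of 13 genes in each F1 IUO (blue) and F2 IUO (orange) library, with 1 point for each of the 4 libraries of a group and the mean as a black line. The first 6 genes, from AY172581.7 to Ndufv3, lie higher in every F2 library, and the last 7, from Sptb at 11.2 to 15.1 against 3.97 to 6.25 to Dnmt3a, lie lower in every F2 library.

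The genes that the study had singled out, chosen by it on these samples, did not separate the generations of the IUO lineage. The study had compared treatment groups instead. By RT-PCR it reported trends of Hcrt and Avp among them that were alike in F1 and F2. Pmch was there highest in IUO pups in F1 and in PNO pups in F2. Of the 12 gene models tested, 0 passed a limma unadjusted p of 0.05 and 0 passed the 2-fold rule. Hcrt, the precursor of the hypocretins that promote arousal, stood at 0.87, 41.2, 9.28 and 41.3 FPKM in F1 and at 9.15, 16.1, 8.61 and 0.45 FPKM in F2. Avp, the precursor of vasopressin, stood at 68.3, 27.2, 14.2 and 49.4 FPKM in F1 and at 4.44, 16.1, 85.6 and 3.97 FPKM in F2. Values of these peptides of hypothalamic neurons thus varied widely within each generation, and the groups overlapped. Pdyn, the precursor of dynorphin, which projection neurons of the NAc make themselves, had 38.3 to 60.1 FPKM in F1 and 21.9 to 53.0 FPKM in F2. Nptx2, which gathers AMPA receptors at synapses, had 19.1 to 40.7 FPKM in F1 and 20.1 to 39.4 FPKM in F2.

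The same contrast was made in the other lineages. Y-linked RNA was not balanced there either. The 3 tested Y-linked genes had a median of -4.79 in the saline and -3.06 in the PNO lineage, against 1.77 in the IUO lineage. All 3 passed the 2-fold rule in the saline lineage, lower in F2, and 0 did in the PNO lineage. Generation and this balance cannot be told apart in these contrasts. In the saline lineage, 4 genes had an adjusted limma p under 0.05 (0.0294%), 1261 an unadjusted p under 0.05 (9.27%), and 71 passed the 2-fold rule (0.522%), 35 higher and 36 lower in F2. In the PNO lineage these were 2 genes (0.0147%), 562 genes (4.13%) and 102 genes (0.75%), with 50 higher and 52 lower. Of the 340 IUO genes past the rule, 6 also passed it in the saline lineage (1.76% of the IUO and 8.45% of the saline genes), 3 in the same direction. In the PNO lineage there were 9 (2.65% of the IUO and 8.82% of the PNO genes), 7 in the same direction. Across all 13602 genes the log2 differences of the IUO lineage correlated with those of the saline lineage at r = 0.27 and with those of the PNO lineage at r = 0.27, where genes are not independent and no library is shared.

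Tests of the difference between lineages (a generation by treatment interaction in limma) gave 0 genes at an adjusted p under 0.05 against either lineage (0%), with smallest values of 0.696 and 0.594. Against saline, 718 genes passed an unadjusted p of 0.05 (5.28%), with 220 above 0 (1.62%) and 498 below (3.66%). Those above 0 included all 3 tested Y-linked genes. Against PNO, 813 did (5.98%), with 465 above 0 (3.42%) and 348 below (2.56%). The larger counts of the IUO lineage at an unadjusted p and by the 2-fold rule were thus not shown, after adjustment, to differ from those of the other lineages at any gene.

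The lists differed in how far they belonged to 1 lineage. Striatal projection neuron genes had medians of -0.54 in the IUO, -0.10 in the saline and 0.18 in the PNO lineage. Of 32 members, 18 had an interaction with PNO below 0 at an unadjusted p under 0.05, against 2.56% of all genes, and 5 had one with saline, against 3.66%. In the PNO lineage itself 7 members were higher in F2 and 1 was lower, against 2% and 2.13% of all genes, so the 18 also rested on that lineage. In the saline lineage 1 was higher and 0 were lower. Adcy5 had a log2 difference of -0.04 in the saline and 0.14 in the PNO lineage, and Gng7 -0.14 and 0.27. Respiratory chain genes had medians of 0.15 in the saline lineage, where 16 of 86 were higher and 2 lower, and 0.03 in the PNO lineage, with 0 higher and 1 lower. An interaction above 0 was found for 4 members against saline (all genes 1.62%) and 8 against PNO (all genes 3.42%). Most members are strongly expressed, and of the 800 genes of 100 FPKM or more 31 and 105 had such interactions. Cytosolic ribosomal protein genes had medians above 0 in all 3 lineages, at 0.24, 0.18 and 0.25, and 8 of 84 were higher in the saline (all genes 4.25%) and 16 in the PNO lineage (all genes 2%). Of the 800 genes of 100 FPKM or more, 89 were higher in the saline lineage (median 0.13) and 26 in the PNO lineage (median 0.01). Thalamus and habenula markers, which moved with the generation in the PNO lineage, had a median of -0.68 there and 0.15 in the IUO lineage.

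**Figure D4:**
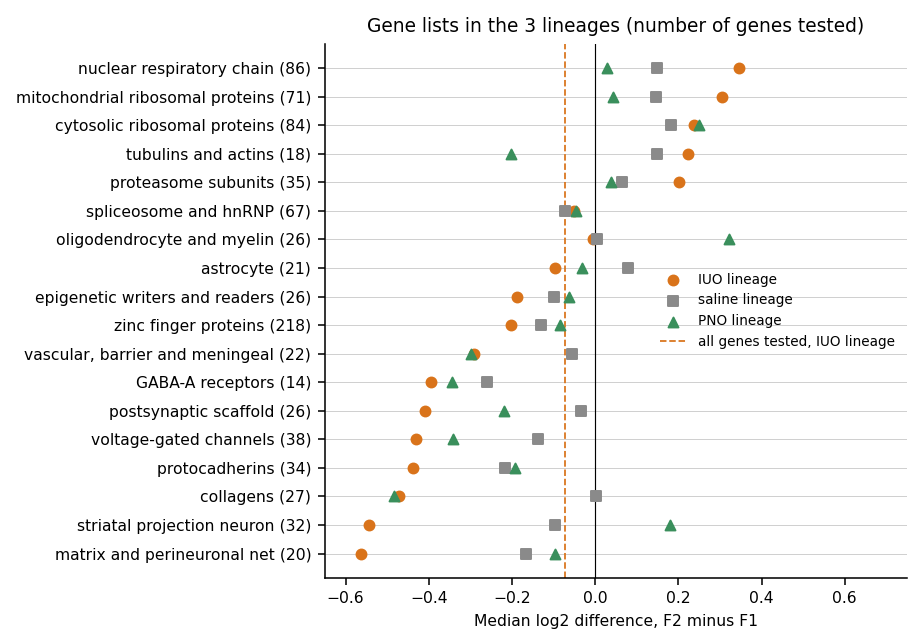
Median log2 difference, F2 minus F1, of 18 gene lists (vertical axis, with the number of genes tested) in the IUO (orange circles), saline (grey squares) and PNO (green triangles) lineages, with the IUO median of all genes, -0.07, as a dashed line. Respiratory chain genes stand at 0.35, 0.15 and 0.03, and striatal projection neuron genes at -0.54, -0.10 and 0.18, below and above 0 in different lineages.

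The genes with the smallest interaction p against saline held both non-coding RNAs and protein-coding genes. Rn7sl1, the RNA of the signal recognition particle, stood at 253, 152, 411 and 230 FPKM in F1 IUO and at 157, 106, 77.1 and 121 FPKM in F2 IUO, while its log2 difference in the saline lineage was 2.09 and in the PNO lineage 0.23. Rpph1, the RNA of ribonuclease P, had 15.7 to 38.8 FPKM in F1 IUO and 8.47 to 18.0 FPKM in F2 IUO, with 0.93 in the saline lineage. Both overlapped between the IUO generations. Stard8, a GTPase-activating protein, stood at 2.35, 2.27, 3.50 and 2.87 FPKM in F1 and at 1.47, 1.13, 1.18 and 1.02 FPKM in F2 without overlap, with 0.36 in the saline lineage (interaction -1.48, at an unadjusted limma p under 0.05). The difference of Sptb was -1.07 beyond that of the saline lineage and -0.98 beyond that of the PNO lineage, both at an unadjusted limma p under 0.05. Glrx, a glutaredoxin that reduces oxidised proteins, was higher in F2 IUO at 60.1 to 71.7 FPKM against 43.9 to 52.6 FPKM, with -0.05 in the saline and -0.02 in the PNO lineage.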

How the data were processed

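RNA-Seq of the NAc was analysed from 1 table per library. The values deposited by the authors were FPKM per gene, for which StringTie was run once all transcriptomes had been merged, and the submitters' processing notes also name HISAT2, SAMtools and edgeR. Their versions and the genome build are not given in the sources used here. No counts were analysed, so edgeR was not used.

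Log2(FPKM + 0.1) was compared with limma 3.58.1 in R 4.3.3 (lmFit, eBayes with a trend, two-sided, Benjamini-Hochberg adjustment over all genes tested), for genes reaching 1 FPKM in no fewer than 4 of the 8 IUO libraries. Replicate numbers did not pair the libraries. The genes and lists were chosen with earlier results of these data known: 12 higher and 12 lower genes, by p, of those past the 2-fold rule without overlap, the genes of the study, up to 4 members per list with the smallest p, the first 3 markers of cell lists and 8 genes by interaction with saline. Gene names and descriptions are those in the files. Alternatives were another pseudocount, other filters, rescaling, 1 fit of all libraries, a replicate block, marker covariates, a 1.5-fold limit and leaving out each library. Rescaling outside the mitochondrial genome, values relative to the median and list counts under each alternative were added after seeing the data. Python 3.11.15, pandas 2.3.3, numpy 2.4.6 and matplotlib 3.10.9 were used. Data of RT-PCR and behaviour were not analysed. Some genes of the lists are counted but not reported by name here.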

Additional observations from a re-analysis of the deposited data

Results flagged for a closer look

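In 162 groups of 4 libraries (90 for lists and 72 for genes), the highest or lowest library was tested for a gap to its nearest neighbour above Dixon's 95% critical value, as a share of the group's range, and 10 gaps exceeded it, where chance gives about 1 in 20, or 8.1. Among the lists, F1 IUO 4 was highest for postsynaptic scaffold genes (gap 0.909 of the range) and lowest for small RNA gene models (0.846). F1 IUO 1 was highest for neural progenitor and immature neuron genes (0.84) and lowest for zinc finger genes (0.857). F2 IUO 1 was lowest for Y-linked genes (0.95), with a relative log2 level of -3.03 against 2.06 in the nearest F2 library. Among the genes, F1 IUO 3 was highest for AABR07006025.1 (1.0), with the other F1 libraries listed at 0, and for Unc13c (0.871). F2 IUO 1 was lowest for Unc13c (0.987), and F2 IUO 4 was lowest for Fam102b (0.859) and Shc3 (0.875). No cause was tested.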

How the results depend on the processing

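The counts past the 2-fold rule in the IUO, saline and PNO lineages were 562, 225 and 293 with a filter of 0.1 FPKM, 674, 385 and 450 with no filter beyond a value above 0, and 1206, 252 and 289 at 1.5-fold. A covariate of Y-linked genes left 24 in the saline lineage, and covariates of thalamus and hypothalamus markers left 62 and 28 in the PNO lineage. At an adjusted limma p under 0.05, the IUO comparison gave 2 genes with the thalamus and 1 with the cortical covariate, and the interaction with PNO gave 1 with no filter. Leaving out each library gave 0 to 3 adjusted IUO genes (3 without F1 IUO 1 and without F2 IUO 3, 2 without F1 IUO 3), 231 to 548 past the IUO rule (231 without F2 IUO 4, 548 without F2 IUO 3), 68 to 113 in saline (113 without F2 SAL 3), 86 to 144 in PNO and 0 to 1 for the interaction with saline (1 without F2 SAL 1), with 0 to 0 for that with PNO. The replicate block gave 344 genes past the IUO rule, and the correlations of same-numbered libraries were -0.24, -0.03, 0.07 and -0.12, so the numbers do not pair them. Rescaled outside the mitochondrial genome, the rule took 441 genes (37 higher, 404 lower), and relative to the median 283 (68 higher, 215 lower). The IUO difference of Otp reversed to 0.14 with a pseudocount of 1 and to 0.03 relative to the median, and ranged from -0.89 to 0.57 when each library was left out. That of 1 Hba-a2 model reversed to -0.3 with the Y-linked covariate and to -0.02 when rescaled, and ranged from -0.45 to 0.9. The other Hba-a2 model ranged from -1.06 to 0.21, Tcf7l2 from -0.05 to 0.91, Oxt from -1.4 to 0.36 and Pmch from -2.76 to 0.25. The cause of these changes was not tested. Depth is unknown, so detection limits are not given.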

Other observations

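Pathway annotations in the files, described after their values were seen, were read against the median of all genes, -0.07, and against the 6.32% of all genes that were higher and 10.7% that were lower at an unadjusted p under 0.05. Of 266 KEGG pathways with at least 20 tested genes, 206 had a median log2 difference below 0 and 163 had one below that of all genes. Renin secretion had the lowest median (-0.48), followed by nicotine addiction (-0.44 over 44 genes, with 16 lower, or 36.4%, and 0 higher by limma), retrograde endocannabinoid signaling (-0.37 over 106 genes, 34 lower, or 32.1%, and 4 higher) and morphine addiction (-0.37 over 99 genes, 32 lower, or 32.3%, and 5 higher). These pathways share many receptor, channel and cyclase genes. In the morphine pathway, Prkcb, a protein kinase C, stood at 51.1, 57.8, 57.3 and 63.0 FPKM in F1 and at 30.1, 40.7, 35.3 and 27.9 FPKM in F2, and Pde8b, a cAMP phosphodiesterase, had 13.4 to 14.2 FPKM in F1 and 6.11 to 10.7 FPKM in F2, both without overlap. The saline and PNO medians of that pathway were -0.08 and -0.12. Oxidative phosphorylation had the highest median (0.29 over 156 genes, 56 higher, or 35.9%, and 0 lower), and the ribosome pathway, with many copies of ribosomal genes, had 0.25 (361 genes, 90 higher, or 24.9%, and 9 lower).

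Stress axis genes gave 2 calls, and so did clock genes. Mt2A, a metallothionein induced by glucocorticoids and metals, stood at 55.3, 33.3, 53.6 and 43.3 FPKM in F1 and at 65.4, 121, 68.9 and 57.3 FPKM in F2. With Ddit4 it made the 2 higher (12.5%, against 6.32% of all genes) of 16 genes of the stress axis, where 0 were lower. The count was 1 without F1 IUO 1, F2 IUO 1 or F2 IUO 4. Of 18 clock genes 2 were lower (11.1%, near the share of all genes) and 0 higher, and Tef, a transcription factor of clock output, had 32.2 to 43.7 FPKM in F1 and 26.7 to 34.9 FPKM in F2. Among 21 imprinted genes 4 were higher (19%, against 6.32% of all genes) and 2 lower (9.52%, against 10.7%). The count of higher ones was 2 without F1 IUO 2 and 5 without F2 IUO 2. Snrpn, which is expressed from the paternal copy, stood at 138, 109, 117 and 88.4 FPKM in F1 and at 327, 130, 175 and 299 FPKM in F2, where F2 IUO 2 lay within the F1 range. Igf2r, a receptor that is expressed from the maternal copy, had 5.46 to 6.84 FPKM in F1 and 1.88 to 4.68 FPKM in F2. Small RNA gene models gave 4 higher (2.78%) and 15 lower (10.4%, near the share of all genes) of 144, and the 188 olfactory and vomeronasal receptor genes gave 0 tested.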
